A study of Mus musculus with 6 samples.

Results

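Expression of genes of the red cell membrane skeleton and surface was measured in the marrow of adult female F1 mice that came from different crosses to FVB/NJ. The 8 genes were Sptb, Ank1, Epb42, Slc4a1, Add2, Rhag, Icam4 and Tspan33, and every probe set was used that the array's annotation pairs with exactly 1 of these symbols. This gave 22 of the 45037 probe sets tested: 5 for Add2, 4 each for Ank1 and Tspan33, 3 for Slc4a1, 2 each for Sptb and Epb42, and 1 each for Rhag and Icam4. The study compared basal expression between F1 mice of AKR/J and FVB/NJ (AKR F1) and F1 mice of DBA/2J and FVB/NJ (DBA F1). There were 3 arrays of each, from untreated marrow that was snap frozen after euthanasia under anaesthesia. Both groups carry 1 FVB/NJ genome, so by design the contrast is between the AKR/J and the DBA/2J parental genomes. Skeletal muscle markers and a 3' to 5' index of control probe sets, described below, also differed between the groups. Their part and that of genotype cannot be told apart here. The labels do not tie an array to an animal, so p-values cover only the spread between these 6 arrays, whose small number sets the precision.

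A red cell keeps its shape and its resistance to shear through a lattice of spectrin under the membrane. Spectrin is tied to the lipid bilayer at complexes built around ankyrin and the anion exchanger and, at its ends, to short actin filaments capped by adducin. Erythroblasts switch these genes on as they mature in the marrow, and inherited loss of spectrin, ankyrin or the anion exchanger causes fragile, rounded red cells. Surface proteins of the same cells carry gases and ammonium, hold blood group antigens, and bind neighbouring cells in erythroblastic islands.

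The values are log2 expression values, normalized between arrays before deposit. Differences are the AKR F1 mean less the DBA F1 mean, in log2 units. The standard error (SE) is that of a limma fit over all probe sets, and a probe set passed when its Benjamini-Hochberg adjusted p was under 0.05. The array medians lay between 5.14 and 5.19, and 20 of the 22 probe sets lay above the median level of all probe sets. Marrow identity was checked on named markers: the neutrophil genes S100a8 and S100a9 had mean levels of 14.38 and 14.62, and the erythroid heme synthesis genes Alas2 and Fech had mean levels of 13.10 and 13.19. The 1 usable probe set of the globin gene Hba-a1 was dim, with a mean level of 3.69, so globin gave no check of the red cell content. In whole marrow, fewer cells of a type and less RNA per cell cannot be told apart.

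Markers of other cells and control probe sets also differed between the groups. The mean level of 12 skeletal muscle markers lay between 6.71 and 8.13 in AKR F1 and between 8.76 and 11.41 in DBA F1, with the highest value in DBA F1 replicate 1. Of these 12 markers 9 were lower in AKR F1, none was higher, and Myh4, a fast myosin heavy chain, differed by -3.67. The 3' to 5' index, which averages how far the 3' probe sets exceed the 5' ones for Actb, Gapdh and spiked-in controls, lay between 1.25 and 2.03 in AKR F1 and between 1.03 and 1.23 in DBA F1. A higher index means less signal toward the 5' end of a transcript.

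Promoter sequence is shown for 4 members that went different ways, Icam4 and Tspan33 (higher in AKR F1) and Epb42 and Rhag (values below 0). The 250 bases before the annotated start were taken from a table of RefSeq promoters, build GRCm38.p6, in which 6 of the 8 genes were matched. The Icam4 stretch is chr9:21029182-21029431 on the plus strand, that of Tspan33 chr6:29693964-29694213 on the plus strand, that of Epb42 chr2:121036878-121037127 on the minus strand, and that of Rhag chr17:40810899-40811148 on the plus strand. Capitals mark matches, on either strand, to AGATAA or TGATAA, letters bound by GATA factors, and to CCNCNCCC, letters bound by Kruppel-like factors. A match on the other strand reads as the reverse complement.
Icam4: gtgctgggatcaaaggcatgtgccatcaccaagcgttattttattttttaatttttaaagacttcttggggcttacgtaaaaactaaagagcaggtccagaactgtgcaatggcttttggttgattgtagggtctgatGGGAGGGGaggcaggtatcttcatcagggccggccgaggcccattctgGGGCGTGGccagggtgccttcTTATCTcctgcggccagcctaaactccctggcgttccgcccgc
Tspan33: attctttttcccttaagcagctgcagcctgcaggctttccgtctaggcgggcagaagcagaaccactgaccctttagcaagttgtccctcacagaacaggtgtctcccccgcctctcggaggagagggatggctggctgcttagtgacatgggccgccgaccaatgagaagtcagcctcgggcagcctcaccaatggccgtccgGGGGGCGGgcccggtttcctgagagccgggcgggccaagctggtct
Epb42: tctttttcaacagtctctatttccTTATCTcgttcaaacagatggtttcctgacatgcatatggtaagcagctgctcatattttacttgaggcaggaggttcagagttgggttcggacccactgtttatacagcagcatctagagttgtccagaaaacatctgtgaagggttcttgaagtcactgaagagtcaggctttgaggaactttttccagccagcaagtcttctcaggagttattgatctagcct
Rhag: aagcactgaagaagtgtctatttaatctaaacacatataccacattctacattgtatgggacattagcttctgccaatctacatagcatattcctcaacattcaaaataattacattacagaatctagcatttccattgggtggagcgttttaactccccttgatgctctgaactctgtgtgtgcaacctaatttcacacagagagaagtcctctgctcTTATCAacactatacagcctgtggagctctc
Icam4 held both kinds of match, an AGATAA match ending 38 bases before the start and 2 CCNCNCCC matches. Tspan33 had 1 CCNCNCCC match, as close as 39 bases before the start. Epb42 and Rhag each held 1 GATA-type match, ending 221 and 26 bases before the start, and no CCNCNCCC match. Of the other 2 genes matched, Sptb had 3 CCNCNCCC matches, of which a pair overlap, and Add2 had 2, which also overlap. So 4 of 6 members had a CCNCNCCC match and 3 of 6 a GATA-type match. Over all 32851 promoters of the same length the shares were 45.9% and 16.6%. A match describes letters only and does not show that a factor is bound.

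Of the 8 genes, 5 had at least 1 probe set that was higher in AKR F1 marrow, and 1, Epb42, had a probe set that was lower. Genes with more probe sets have more chances of a call, and the matching share over all genes was not computed. With 1 value per gene, 4 were higher by the brightest probe set, and 2 were higher and 1 lower with probe sets averaged. Of the 22 probe sets 7 were higher, 1 was lower and 14 did not pass (limma, adjusted over all 45037 probe sets). The higher ones belong to Sptb, Ank1, Add2, Icam4 and Tspan33, with 3 for Tspan33, and the lower one to Epb42. Over all probe sets 12.3% passed, 5.57% higher and 6.73% lower, and among those above the median level 21.1% passed, 9.81% higher and 11.3% lower. The members' share was 36.4%, with 31.8% higher and 4.55% lower, and their median difference was 0.26 against 0.03 for all probe sets. Because the members were chosen with earlier results of these data known, this comparison is a description only and no test of the group. The groups did not overlap in 13 of the 22: all AKR F1 arrays lay above all DBA F1 arrays in 10, and below them in 3, which are both probe sets of Epb42 and that of Rhag. Over all probe sets these shares were 18.1% and 14.9%. When AKR F1 replicate 2 or replicate 3 was left out, 4 of the 8 passed, and these were those of Icam4, Ank1 and a pair of Tspan33. With the 3' to 5' index or the muscle list mean as a covariate 0 of 22 passed in limma. The unadjusted limma p was then under 0.05 in 9 and 7 of all 22 probe sets, against 11 without a covariate. Of the 8 called probe sets it was under 0.05 in 6 and 5, so some of the 9 and 7 were not called before. All 8 called differences kept their sign in both fits, and the median ratio of their SE to that without a covariate was 1.57 and 1.82.

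**Figure D1:**
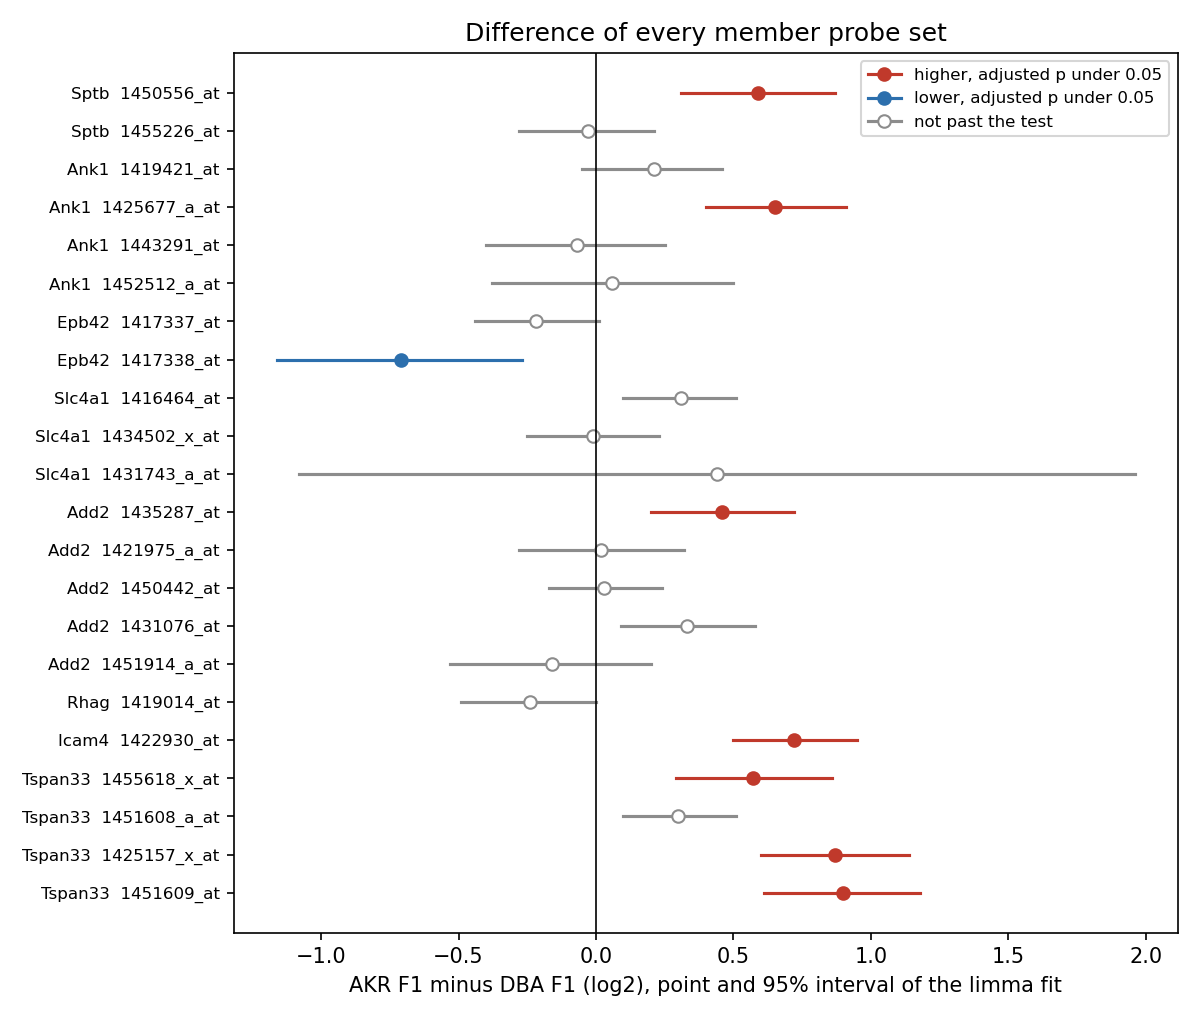
Difference between AKR F1 and DBA F1 marrow (log2, horizontal axis) for each of the 22 probe sets, as point and 95% interval of the limma fit over 3 arrays a group; filled points passed at an adjusted p under 0.05. The 7 red points of Sptb, Ank1, Add2, Icam4 and Tspan33 lie to the right of 0 and the blue point of Epb42 at -0.71.

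Sptb encodes the beta chain of red cell spectrin, which pairs with the alpha chain to form the lattice. Its probe set 1450556_at was at 9.64, 9.75 and 9.73 in AKR F1 replicates 1 to 3 and at 9.11, 9.35 and 8.90 in DBA F1. All AKR F1 arrays were above all DBA F1 arrays, and the DBA F1 arrays spread more widely than those of AKR F1. The difference was 0.59 (limma SE 0.12 and adjusted p = 0.020), a 1.51-fold higher level in AKR F1. It passed in 4 of 6 fits with 1 array left out, with adjusted p of 0.079 and 0.081 without AKR F1 replicates 2 and 3. The other probe set, 1455226_at, was dim, between 5.62 and 5.95 in all arrays, and differed by -0.03 with overlapping groups.

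Ank1 encodes the ankyrin that anchors spectrin to the anion exchanger. Its 4 probe sets gave unlike values. The brightest, 1419421_at, was at 10.86, 10.99 and 10.91 in AKR F1 and 10.70, 10.90 and 10.54 in DBA F1. Here the groups overlapped through DBA F1 replicate 2, and the difference of 0.21 did not pass (95% interval -0.05 to 0.46, limma adjusted p = 0.27). By contrast 1425677_a_at was at 9.63, 9.46 and 9.53 against 8.83, 8.75 and 9.08, with no overlap. Its difference was 0.65 (limma SE 0.11 and adjusted p = 0.011), 1.57-fold, and it stayed past the test with any 1 of the 6 arrays left out. The dim probe sets 1443291_at and 1452512_a_at differed by -0.07 and 0.06 and did not pass. Which transcripts of Ank1 each probe set reads was not analysed here, and the gene also has muscle transcripts, so the muscle values above stand beside this result.

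Epb42 encodes a protein that binds the anion exchanger and ankyrin on the inner face of the membrane. Its probe set 1417338_at was at 8.82, 8.05 and 8.49 in AKR F1 and 8.95, 9.35 and 9.19 in DBA F1. Every AKR F1 array was below every DBA F1 array, with AKR F1 replicate 2 lowest. The difference was -0.71 (limma SE 0.19 and adjusted p = 0.048), and this was the 1 member probe set that passed as lower. The brighter 1417337_at was at 9.29, 9.24 and 9.45 against 9.46, 9.65 and 9.53, a difference of -0.22 that did not pass (limma adjusted p = 0.20), although its groups also did not overlap. The call at 1417338_at was narrow: it passed in 2 of 6 fits with 1 array left out. Its limma adjusted p was 0.051 with median centring, 0.054 with quantile normalization and 0.068 with the replicate number as a block. With a filter on dim probe sets, a variance trend or array weights this probe set passed (limma adjusted p = 0.038, 0.039 and 0.019). With the 3' to 5' index as a covariate the difference was -0.15 and with the muscle mean -1.21, neither past the test (limma adjusted p = 0.78 and 0.12). The cause of these shifts was not tested.

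Slc4a1 encodes the anion exchanger, the chloride and bicarbonate carrier around which the ankyrin complex is built. Its probe set 1416464_at was at 13.45, 13.57 and 13.61 in AKR F1 and 13.24, 13.30 and 13.17 in DBA F1. The groups did not overlap, but the difference of 0.31 (SE 0.09, 95% interval 0.10 to 0.51) did not pass (limma adjusted p = 0.062). It passed with a filter on dim probe sets, a variance trend or array weights (limma adjusted p = 0.048, 0.024 and 0.042), and in no fit with 1 array left out. A second bright probe set, 1434502_x_at, was at 12.92, 12.86 and 13.04 against 12.86, 13.11 and 12.88, a difference of -0.01 with overlapping groups. The third, 1431743_a_at, varied far more between arrays of 1 group: it was at 8.27, 5.25 and 6.40 in AKR F1 and 6.07, 6.87 and 5.65 in DBA F1. AKR F1 replicates 1 and 2 were its highest and lowest arrays, and the difference of 0.44 had an SE of 0.66. Without AKR F1 replicate 1 it was -0.37. With the 3' to 5' index as a covariate this difference was 2.48 and with the muscle mean -0.57, neither past the test (limma adjusted p = 0.14 and 0.86). The cause of these shifts was not tested.

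Add2 encodes beta-adducin, which caps actin filaments and recruits spectrin to them. The brightest of its 5 probe sets, 1435287_at, was at 8.84, 9.13 and 9.03 in AKR F1 and 8.43, 8.70 and 8.49 in DBA F1. The groups did not overlap and the difference was 0.46 (limma SE 0.11 and adjusted p = 0.037), 1.38-fold. It passed in 2 of 6 fits with 1 array left out, where adjusted p lay between 0.037 and 0.13. The probe set 1431076_at was at 7.55, 7.58 and 7.49 against 7.03, 7.38 and 7.21, also without overlap, and its difference of 0.33 did not pass (limma adjusted p = 0.083). The other 3 probe sets differed by 0.03, 0.02 and -0.16, all with overlapping groups. A pair of these, 1450442_at and 1421975_a_at, was designed from the same transcript, as both carry 1 accession in the annotation.

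**Figure D2:**
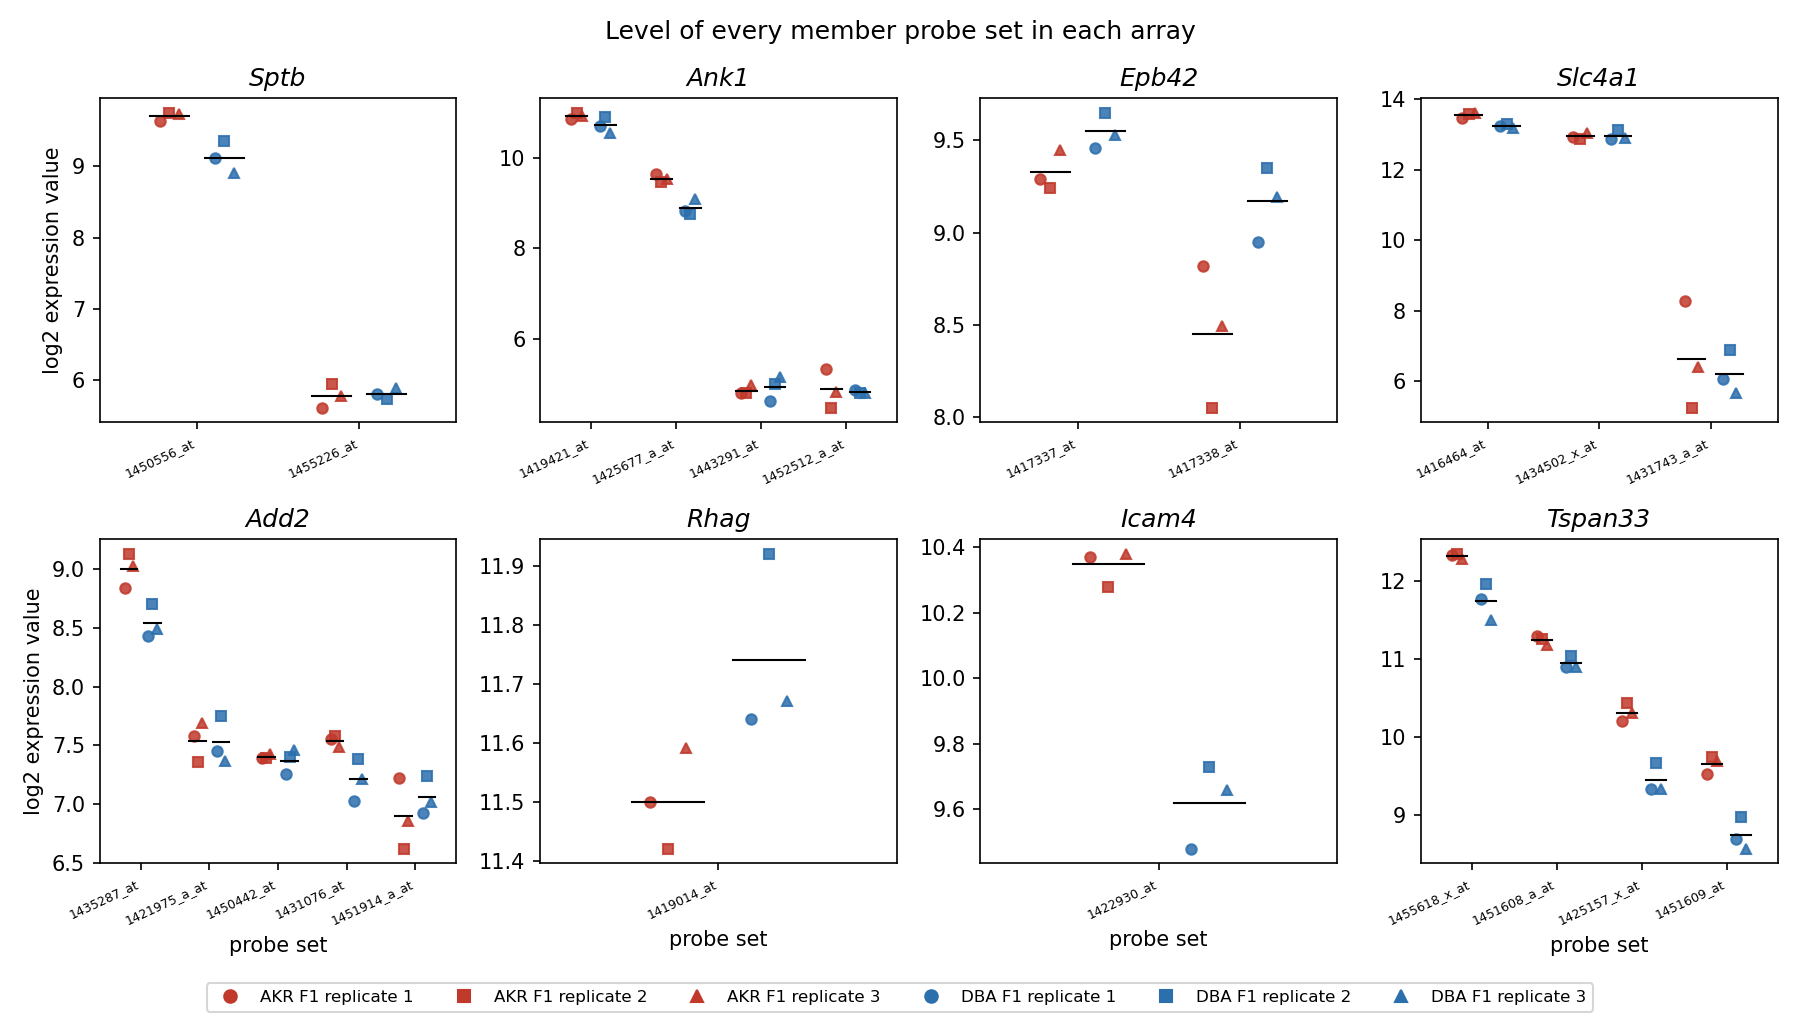
Log2 expression value (vertical axis, a separate scale for each gene) of every probe set of the 8 genes in each of the 6 arrays; black bars are means of 3 arrays. Icam4 lies between 10.28 and 10.38 in AKR F1 and between 9.48 and 9.73 in DBA F1, and Epb42 and Rhag are the panels in which the AKR F1 arrays lie lower.

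Among the surface proteins, Rhag encodes the Rh-associated glycoprotein, an ammonium and gas channel needed for Rh antigens to reach the surface. Its only probe set was at 11.50, 11.42 and 11.59 in AKR F1 and 11.64, 11.92 and 11.67 in DBA F1. All AKR F1 arrays were lower, by as little as 0.05 between the nearest arrays, and the difference of -0.24 (SE 0.11, 95% interval -0.49 to 0.00) did not pass (limma adjusted p = 0.19).

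Icam4 encodes the adhesion molecule that carries the Landsteiner-Wiener blood group and binds integrins. It was at 10.37, 10.28 and 10.38 in AKR F1 and 9.48, 9.73 and 9.66 in DBA F1. The arrays of each group lay close together and the nearest arrays of the groups were 0.55 apart. The difference was 0.72 (limma SE 0.10 and adjusted p = 0.0057), 1.65-fold, and it stayed past the test with any 1 of the 6 arrays left out, with adjusted p from 0.011 to 0.034. With the 3' to 5' index or the muscle mean as a covariate it was 0.81 and 0.49 (limma adjusted p = 0.12 and 0.18). No second probe set can check this gene. Parental sequence differences beneath probes were not analysed here, for Icam4 or for any other member.

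Tspan33 encodes a tetraspanin of erythroid precursors that is also found on activated B cells. All 4 of its probe sets were higher in every AKR F1 array than in any DBA F1 array. The probe set 1451609_at was at 9.52, 9.74 and 9.69 against 8.70, 8.98 and 8.57, and 1425157_x_at at 10.20, 10.43 and 10.31 against 9.34, 9.66 and 9.34. In both, the nearest arrays of the groups were more than 0.5 apart, and DBA F1 replicate 2 was the highest of its group. The differences were 0.90 (limma SE 0.13 and adjusted p = 0.0062) and 0.87 (limma SE 0.12 and adjusted p = 0.0059), 1.86-fold and 1.82-fold, and each stayed past the test whichever array was left out. The brightest, 1455618_x_at, was at 12.32, 12.34 and 12.28 against 11.76, 11.96 and 11.49, a difference of 0.57 (limma adjusted p = 0.023) that passed in 3 of those 6 fits. The probe set 1451608_a_at, at 11.29, 11.25 and 11.17 against 10.89, 11.03 and 10.89, differed by 0.30 and did not pass (limma adjusted p = 0.063). Of the 4, 3 share an accession in the annotation, and the suffix x marks probe sets whose probes may also match other transcripts. Of 9 measured B cell markers 1 was higher and 2 were lower, which is 33.3% against 15.2% of all genes. Their mean level lay between 8.84 and 9.32 in AKR F1 and between 8.87 and 9.07 in DBA F1. The part of B cells in the Tspan33 result was not tested.

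The arrays of DBA F1 often ranked alike across the member probe sets, several of which share a gene. Of the 22 probe sets DBA F1 replicate 2 was the highest of its group in 17, while DBA F1 replicate 1 was the lowest in 12. The 17 include probe sets that were higher and that were lower in AKR F1, but at the called Ank1 1425677_a_at DBA F1 replicate 2 was the lowest (8.75). The matching shares over all probe sets were not computed. In AKR F1 the highest array was replicate 1 in 6, replicate 2 in 8 and replicate 3 in 8.

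With 1 probe set per gene, the brightest, Sptb, Add2, Icam4 and Tspan33 were higher, none was lower, and Ank1, Epb42, Slc4a1 and Rhag did not pass (limma, adjusted over 18193 genes). Of all genes 15.2% passed, 9.20% higher and 6.04% lower, and the median difference was 0.38 for the 8 members and 0.06 for all genes. When AKR F1 replicate 2 or 3 was left out, 1 of the 8 genes passed. With all probe sets of a gene averaged instead, Icam4 (0.72) and Tspan33 (0.66) were higher, Epb42 was lower (-0.46, limma adjusted p = 0.043), and Sptb (0.28) and Add2 (0.14) did not pass.

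Other genes of the membrane skeleton went in both directions. Of 18 measured genes of the list, 1 was higher and 2 were lower (15.2% of all genes passed), 15 did not pass, and the list had a median difference of -0.09. Dmtn, which encodes the actin-bundling protein dematin, was at 11.42, 11.48 and 11.51 in AKR F1 and 10.80, 10.88 and 10.39 in DBA F1, a difference of 0.78 (limma SE 0.13 and adjusted p = 0.0098) that stayed past the test with any 1 of the 6 arrays left out. Its dimmer probe sets differed by -0.22 and 0.00 and did not pass. Add3, which encodes gamma-adducin, was at 9.59, 9.41 and 9.44 against 10.23, 10.23 and 9.93. This was opposite in sign to Add2, at a difference of -0.65 (limma SE 0.11 and adjusted p = 0.010), and a pair of its other probe sets fell by 0.96 and 1.21 while another, at 0.11, did not pass. Tpm1, a tropomyosin of muscle and other cells, was at 9.34, 9.09 and 8.82 against 12.24, 9.99 and 10.62 (difference -1.87, limma adjusted p = 0.034), with its highest level in DBA F1 replicate 1, where the muscle markers were also highest (11.41). With the muscle list mean as a covariate its difference was -0.07. Without AKR F1 replicate 2 only Dmtn of these passed. The 4 brightest genes that did not pass were Actb (-0.42, limma adjusted p = 0.068), Actg1 (-0.05), Tpm3 (-0.20) and Mpp1 (0.07). Probe sets of Tpm3 went both ways, since another one differed by 0.71 and passed the probe set test (limma adjusted p = 0.0071). With all probe sets of a gene averaged, 3 genes of the list were lower, Add3 (-0.68), Sptbn1 (-0.41) and Epb41l2 (-0.35), and none was higher. Dmtn was then at 0.19 and Tpm1 at -0.74 (limma adjusted p = 0.11 and 0.055), and Actb (0.30), Tpm3 (0.09) and Mpp1 (-0.05) changed sign without passing.

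Of 27 measured genes of other surface and transport proteins, 5 were higher and 1 was lower, while 21 did not pass, at a list median of 0.14. That is 22.2% of the list against 15.2% of all genes. With all probe sets of a gene averaged, 5 were higher and 3 were lower: Stom dropped out, Slc29a1 (0.33) was higher, and Tfrc (-1.24) and Xk (-0.58) were lower, Xk having been at 0.16 in its brightest probe set. Cd59a, which protects cells from complement, was at 9.20, 8.96 and 9.31 in AKR F1 and 8.43, 8.35 and 8.64 in DBA F1, a difference of 0.68 (limma SE 0.12 and adjusted p = 0.012). Cd55, another complement regulator, went the other way, at 7.66, 7.19 and 7.37 against 7.91, 7.97 and 7.78 (difference -0.48, limma adjusted p = 0.041). Piezo1, the mechanosensitive channel of red cells, was higher by 0.55, Bsg, which encodes basigin, by 0.52, the porphyrin transporter gene Abcb6 by 0.52 and Stom, which encodes stomatin, by 0.42 (limma adjusted p = 0.042, 0.038, 0.021 and 0.020). The other probe sets of Stom differed between -0.69 and 0.19 and did not pass, and with the mean of its probe sets Stom was at -0.19. The 4 brightest genes that did not pass were the carbonic anhydrase genes Car2 (-0.06) and Car1 (0.04), the transferrin receptor gene Tfrc (-0.12) and the water channel gene Aqp1 (0.28, limma adjusted p = 0.096). In Tfrc the other probe sets differed by -1.43 and -2.16, lower in AKR F1, and passed the probe set test (limma adjusted p = 0.016 and 0.012). The count of 6 became 1 without AKR F1 replicate 2 and 0 without replicate 3.

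**Figure D3:**
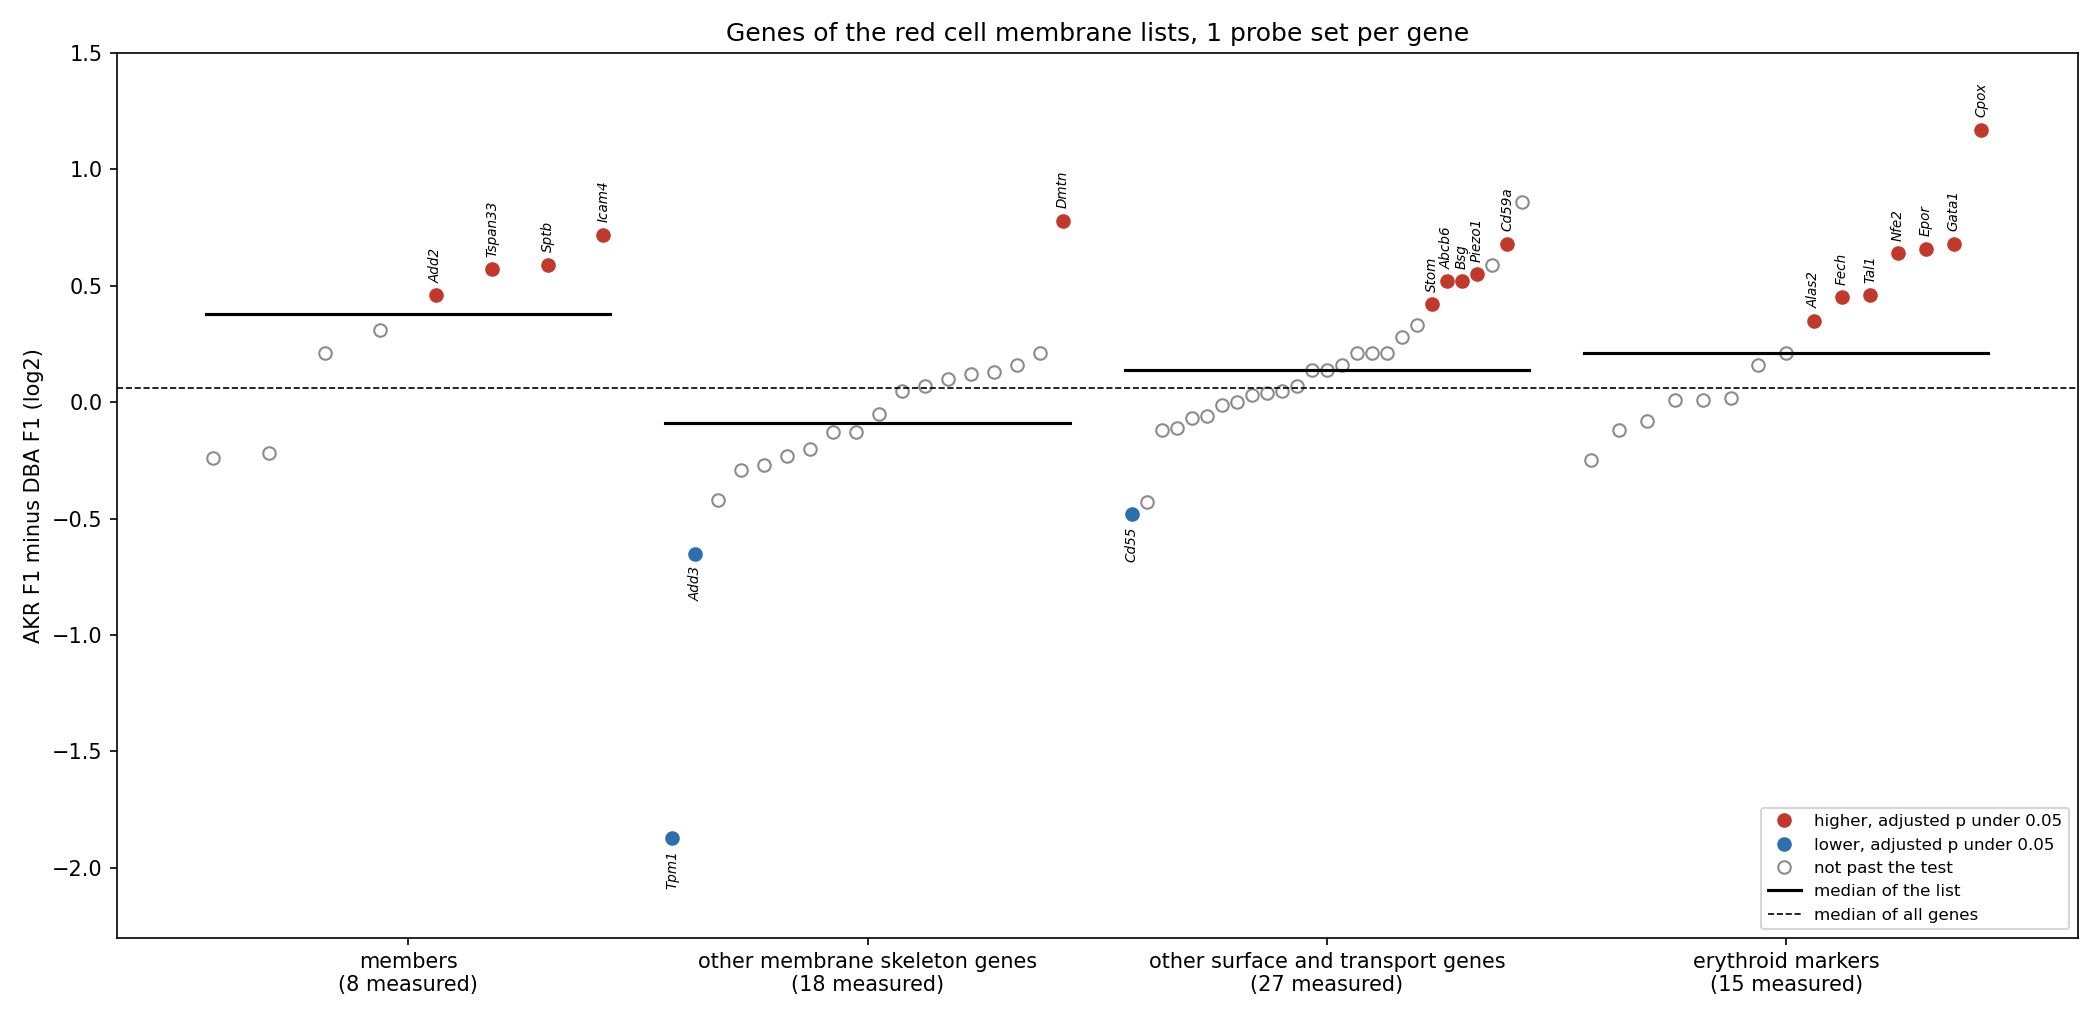
Difference between AKR F1 and DBA F1 (log2, vertical axis) of each measured gene, read from its brightest probe set, in the 8 members, the other membrane skeleton genes, the other surface and transport genes and the erythroid markers; filled and named points passed the limma test at an adjusted p under 0.05. The list medians (bars) are 0.38, -0.09, 0.14 and 0.21, against 0.06 for all genes (dashed line).

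Of 15 measured erythroid markers, each read from its brightest probe set, 7 were higher and 8 did not pass, with none lower and a median difference of 0.21. That is 46.7% of the list, against 50.0% of the members and 15.2% of all genes. The list includes the surface receptor genes Epor (0.66, higher) and Tfrc, and Tfrc also stands in the list of surface and transport genes. The 4 with the smallest p were Cpox (1.17), Fech (0.45), Gata1 (0.68) and Nfe2 (0.64). Other probe sets of Fech differed between -0.30 and 0.25 and did not pass. Those of Cpox differed by 0.22, which did not pass, and by 0.77, which did (limma adjusted p = 0.017). Other probe sets of Tfrc were lower in AKR F1, as given above. The mean level of the 15 markers was between 11.49 and 11.59 in AKR F1 and between 11.18 and 11.31 in DBA F1. That of the 8 members was between 10.79 and 10.87 and between 10.43 and 10.69. Neither overlapped, and DBA F1 replicate 2 was the highest of its group in both. Of the macrophage markers, 4 of 11 were higher and none lower, which is 36.4% against 15.2% of all genes. The 4 were the complement genes C1qa, C1qb and C1qc and the clearance receptor gene Mertk. The other 7 differed between -0.37 and 0.41 and did not pass, and the list median was 0.10 against 0.06 for all genes. The mean level of the 11 markers lay between 9.07 and 9.29 in AKR F1 and between 8.93 and 8.97 in DBA F1. Of the megakaryocyte and platelet markers 2 of 8 were higher and none lower, at mean levels of 11.11 to 11.42 and 10.81 to 11.24. Of the neutrophil markers 1 of 11 was higher and 1 lower (18.2% of the list), at 12.81 to 12.93 and 12.48 to 12.86. The part of these cells in the members' differences was not tested.

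**Figure D4:**
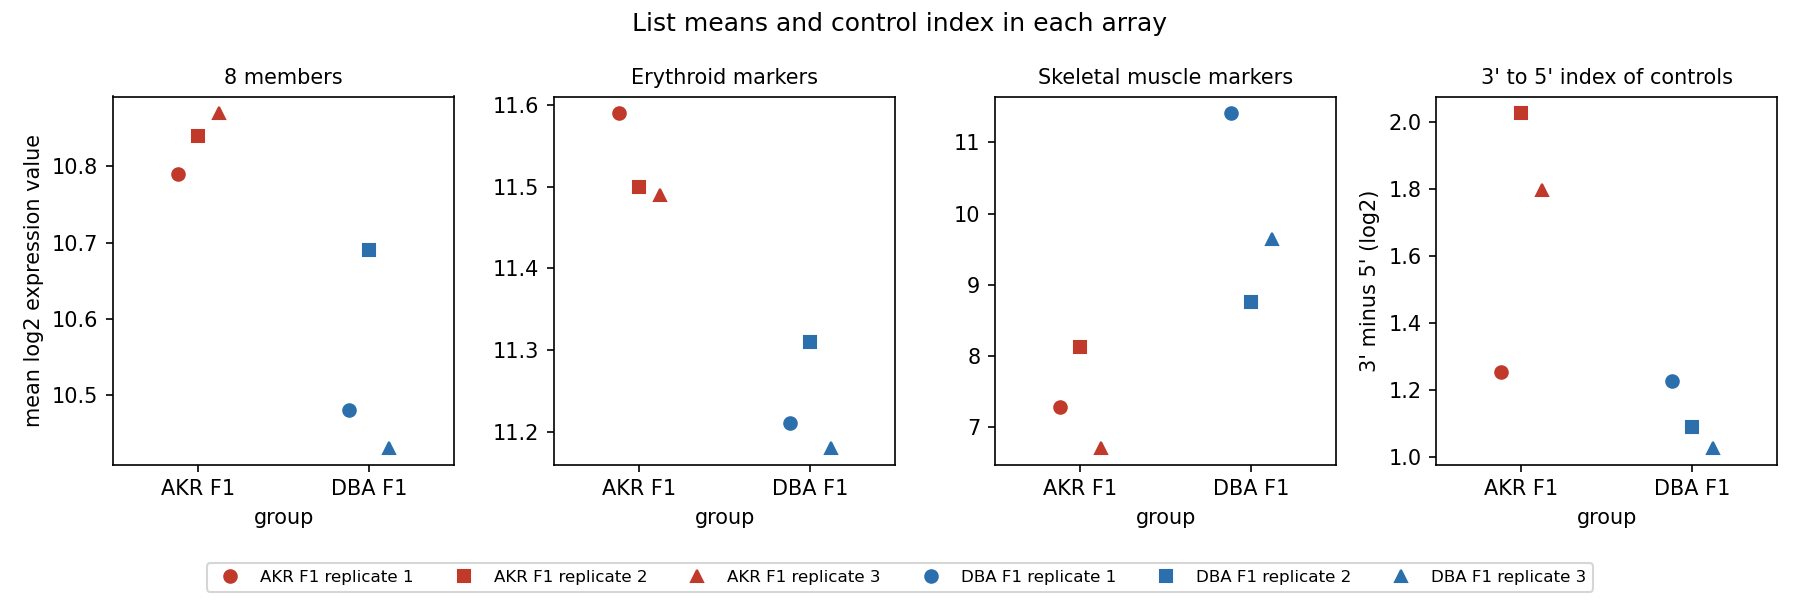
Mean log2 expression value of the 8 members, the erythroid markers and the skeletal muscle markers, and the 3' to 5' index of control transcripts, in each of the 6 arrays (vertical axes differ between panels). The members and the erythroid markers lie higher in all AKR F1 arrays, the muscle markers lie lower, and the index of AKR F1 replicate 1 (1.25) lies near that of DBA F1 replicate 1 (1.23).

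The genes most like the members were those whose level followed the mean of the 8 centred brightest probe sets over the 6 arrays. That profile was 0.10, 0.16 and 0.19 in AKR F1 and -0.21, 0.01 and -0.25 in DBA F1, so it holds the difference between the groups as well as the high DBA F1 replicate 2. Of the members, which are part of the profile, Sptb, Ank1, Slc4a1, Add2, Icam4 and Tspan33 had Pearson correlations with it between 0.91 and 0.98, and Epb42 and Rhag had -0.48 and -0.40 (n = 6 arrays). Outside the lists, Ccdc84 (0.994), Them6 (0.993), E2f2 (0.993), Cdc25b (0.993), Mgmt (0.992) and 1500011B03Rik (0.990) had the highest values. All points share the same 6 arrays and their normalization, and the values are a description only. E2f2 was at 11.51, 11.65 and 11.70 in AKR F1 and 11.04, 11.32 and 10.98 in DBA F1, and Cdc25b at 10.86, 10.87 and 10.94 against 10.27, 10.58 and 10.16.

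Neighbouring genes were read to place the members' differences on the chromosome. Of the 16 nearest measured genes on either side of the members, 3 were higher and none lower, which is 18.8% against 15.2% of all genes. On chromosome 9 Icam4 lies between Icam1 and Icam5, which encode related adhesion molecules. Icam1 was at 7.47, 7.00 and 7.24 in AKR F1 and 6.71, 6.63 and 6.26 in DBA F1, a difference of 0.70 (limma SE 0.15 and adjusted p = 0.021), and Icam5 differed by 0.28 and did not pass (limma adjusted p = 0.083). The other 2 were Ubtf beside Slc4a1 (0.76) and Kat6a beside Ank1 (0.33). The neighbours of Tspan33 and Epb42 did not pass.

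**Figure D5:**
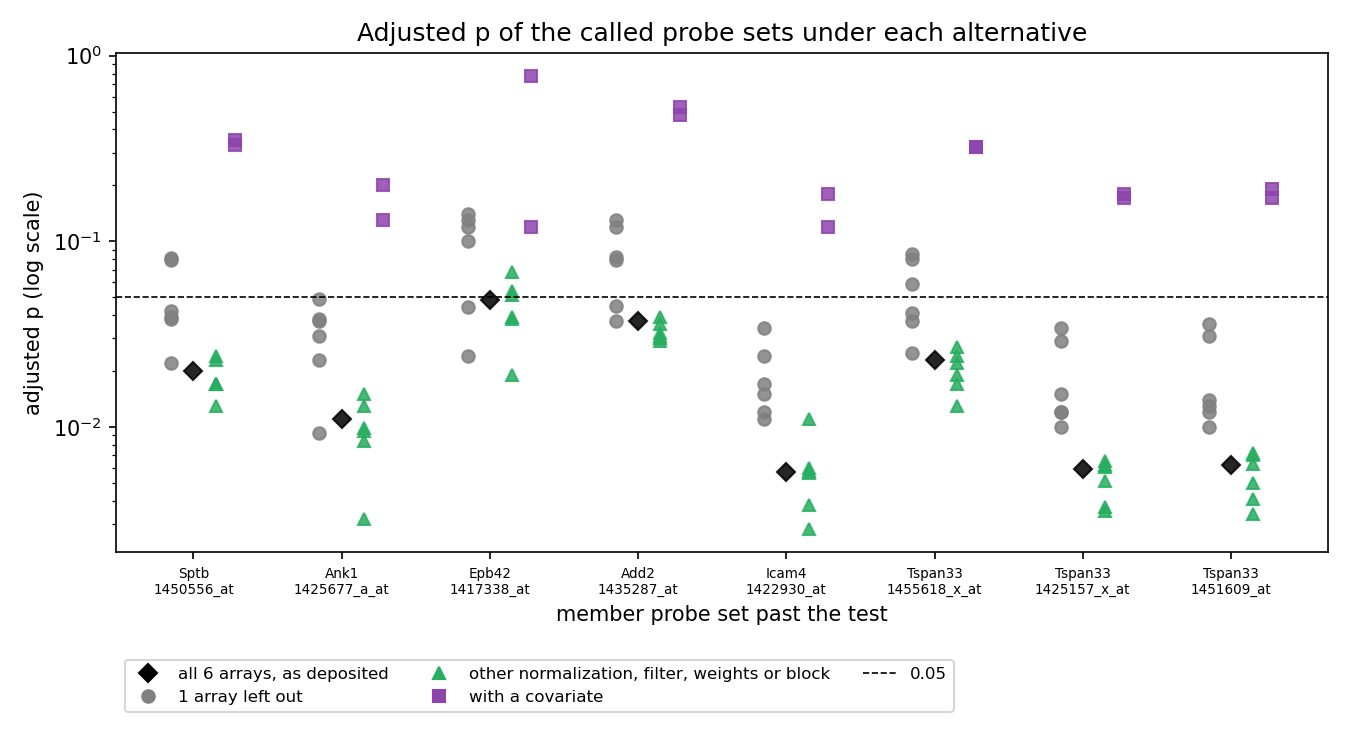
Adjusted p (log axis) of the 8 member probe sets that passed, with all 6 arrays as deposited (diamond), with 1 array left out (circles), with other normalization, filter, variance, weights or replicate block (triangles) and with a covariate (squares); the dashed line is 0.05. Icam4, Ank1 1425677_a_at and a pair of Tspan33 probe sets stay below the line in all fits without a covariate, and no probe set does with one.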

How the data were processed

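Marrow was frozen and its RNA taken up in Trizol, and 1 Affymetrix array was run per sample, per the labels' protocols. What the authors deposited are log2 values per probe set, with quartiles nearly equal across arrays. RMA and MAS5 appear in the submitters' processing notes, and which of these gave the values is not stated there. Detection calls and scan dates were not used here.

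Tests left out 64 control probe sets. Groups and replicate numbers came from the sample titles. Differences were tested with limma 3.58.1 in R 4.3.3 (linear model with empirical Bayes moderation, two-sided, Benjamini-Hochberg adjustment) on all 45037 probe sets and on the brightest probe set of each of 18193 genes. Symbols were updated by gene ID through a RefSeq table of GRCm38.p6. Only the limma fit without covariates was tried on simulated arrays, with noise drawn independently for each probe set and array. The covariate fits, lists and promoter search were not tried this way.

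The members and lists were chosen with earlier results of these data known. Named are all member probe sets, every gene of the 2 pathway lists that passed and the 4 brightest that did not, up to 4 of each marker list by smallest p, and the 6 genes most like the members; the neighbours, Epor, Sptbn1, Epb41l2, Slc29a1, Xk, S100a8, S100a9 and Hba-a1 were added after their values were seen. Alternatives were quantile normalization, median centring, a dim-probe-set filter, robust estimation with a variance trend, array weighting, a replicate block, each array left out, both covariates and averaging all probe sets of a gene.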

Additional observations from a re-analysis of the deposited data

How the results depend on the processing

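The 6 arrays limit precision, and the counts moved most with covariates and with single arrays. With the 3' to 5' index as a covariate 112 probe sets and 21 genes passed in limma, and with the muscle list mean 88 and 56, against 5541 and 2771 without. In both fits 0 member probe sets, 0 member genes, 0 other membrane skeleton genes and 0 other surface and transport genes passed. With array weights 10 other surface and transport genes passed, 8 higher and 2 lower, against 6. Over the fits that left out 1 array the counts ranged from 1683 to 5581 probe sets, 685 to 3248 genes, 4 to 7 member probe sets, 1 to 4 member genes, 1 to 3 other skeleton genes and 0 to 7 other surface genes. The cause was not tested.

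The replicate numbers are shared between the groups, but the correlations of same-numbered deviations were 0.05, 0.02 and 0.08, and 4 of the 6 arrays correlated best with their own number. With the replicate number as a block 5321 probe sets, 2357 genes, 7 member probe sets, 4 member genes, 3 other skeleton genes and 5 other surface genes passed, and the Epb42 call was the member call lost.

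Among the member probe sets and the 9 other genes of the pathway lists that passed, signs turned at Stom (-0.19 with the mean of its probe sets) and at 8 member probe sets that did not pass, none of which passed after turning. With array weights these were Sptb 1455226_at (0.01), Slc4a1 1431743_a_at (-0.01) and Add2 1421975_a_at (-0.05). With the muscle mean they were Sptb 1455226_at (0.08), Ank1 1452512_a_at (-0.04), Slc4a1 1431743_a_at (-0.57), Add2 1421975_a_at (-0.29) and Add2 1450442_at (-0.11), and with the 3' to 5' index Slc4a1 1434502_x_at (0.01) and Add2 1451914_a_at (0.27). Over the fits that left out 1 array the ranges were -0.12 to 0.05 for Sptb 1455226_at, -0.23 to 0.04 for Ank1 1443291_at, -0.17 to 0.26 for Ank1 1452512_a_at, -0.06 to 0.07 for Slc4a1 1434502_x_at, -0.37 to 1.14 for Slc4a1 1431743_a_at, -0.06 to 0.13 for Add2 1421975_a_at and -0.03 to 0.08 for Add2 1450442_at. The cause was not tested. The other alternatives kept the sign of every member probe set.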
